A study of Rattus norvegicus with 11 samples.

Results

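The genes of mitochondrial fusion, fission and mitophagy described here were Mfn1, Mfn2, Opa1, Dnm1l, Fis1, Pink1 and Bnip3, chosen by name from the table of read counts per gene. All 7 were among its 16810 rows, and all 7 passed the filter on low counts that left 10814 genes for testing. The RNA came from the soleus, a slow postural hind limb muscle, of 11 male Sprague Dawley rats aged 12 months, no litter giving more than 1 animal. In the high-fat group (5 animals) the mothers had been fed lard-based chow with 23.3% fat (23.5% in the series' design text) and 20% sucrose, from 3 weeks before mating until the end of lactation. In the control group (6 animals) the mothers had chow with 6% fat (7% in the design text) and 10% sucrose over the same period. Offspring of both groups were weaned at day 21 and then ate standard chow, so neither group was itself fed the rich diet after weaning. Poly(A) RNA of each animal gave 1 library.

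Mitochondria in muscle form a network that is remodelled by joining and dividing. Fusion of the outer membrane is carried out by the mitofusins and that of the inner membrane by the dynamin-like GTPase OPA1, whereas division requires the cytosolic GTPase DRP1, which is recruited to adaptor proteins on the outer membrane. Damaged mitochondria are removed by mitophagy, either through PINK1, a kinase that builds up on depolarised mitochondria and activates the ubiquitin ligase Parkin, or through receptors such as BNIP3 that bind the autophagosome directly. In these data only the transcripts were measured, and not these proteins' cleavage, phosphorylation or location.

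Promoter sequences were read from a RefSeq table of assembly GRCr8, which spans 250 bases before and 50 bases after each annotated start. Of the 7 genes 6 matched, all but Mfn2, and Fis1 had 2 entries. The 4 shown are those of the mitophagy pair Bnip3 and Pink1 and of Opa1 and Dnm1l, whose levels lay low in the same animals. They are also the only entries with a match to the letters searched, and those of Mfn1 and Fis1 held none. Capitals mark matches to CACGTG (the E-box), GTAAACA (bound by FoxO factors) and to the core of the NRF1 site, each searched on both strands.

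Bnip3, GRCr8 chr1:203154913-203155212, minus strand: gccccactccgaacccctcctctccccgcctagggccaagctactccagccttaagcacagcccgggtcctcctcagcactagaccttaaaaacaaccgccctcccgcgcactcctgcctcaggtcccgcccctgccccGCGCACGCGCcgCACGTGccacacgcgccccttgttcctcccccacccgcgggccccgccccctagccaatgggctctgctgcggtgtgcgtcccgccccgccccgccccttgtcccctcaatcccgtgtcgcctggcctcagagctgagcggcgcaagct
Pink1, GRCr8 chr5:155825901-155826200, minus strand: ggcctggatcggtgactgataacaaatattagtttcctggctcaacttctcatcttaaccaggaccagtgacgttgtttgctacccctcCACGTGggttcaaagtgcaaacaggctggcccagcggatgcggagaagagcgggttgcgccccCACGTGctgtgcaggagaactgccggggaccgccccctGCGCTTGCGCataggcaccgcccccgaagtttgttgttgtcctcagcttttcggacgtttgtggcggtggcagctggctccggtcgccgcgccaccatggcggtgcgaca
Opa1, GRCr8 chr11:84689851-84690150, minus strand: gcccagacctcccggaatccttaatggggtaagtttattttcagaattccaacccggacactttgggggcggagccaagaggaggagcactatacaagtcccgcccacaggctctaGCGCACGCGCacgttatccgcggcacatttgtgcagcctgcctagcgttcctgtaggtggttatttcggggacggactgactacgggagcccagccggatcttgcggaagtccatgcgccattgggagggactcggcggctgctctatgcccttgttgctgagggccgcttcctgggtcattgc
Dnm1l, GRCr8 chr11:98085147-98085446, plus strand: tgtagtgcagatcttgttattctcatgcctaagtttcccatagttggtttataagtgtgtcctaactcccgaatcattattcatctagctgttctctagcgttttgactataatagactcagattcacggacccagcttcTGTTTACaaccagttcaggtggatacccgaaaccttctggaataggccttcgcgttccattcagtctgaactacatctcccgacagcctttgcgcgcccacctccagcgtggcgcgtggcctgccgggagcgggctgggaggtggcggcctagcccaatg

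CACGTG was found in the Bnip3 entry and at 2 places in the Pink1 entry, and 6.42% of the 33469 promoters in the table held it. The NRF1 core was found in Bnip3, Pink1 and Opa1 and in 4.25% of all promoters. The FoxO letters were found in Dnm1l alone among the 7 entries and in 3.78% of all promoters. AAGGTCA, bound by oestrogen-related receptors, was in none of the 7 entries and in 4.61% of all promoters. In the Bnip3 entry the NRF1 core and the E-box lay close together without overlap. Such matches describe the sequence and were not tested for binding.

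Libraries held 10.2 to 15.4 M counts (M, the SI mega), averaging 12.9 ± 2.24 M over high-fat animals and 12.7 ± 1.83 M over controls. Here and throughout, a mean over animals is followed by its SD, with n = 5 in the high-fat group and n = 6 in the control group, and a log2 fold change by its SE. Markers of slow fibres were present in every library, as the muscle's label implies. The 8 slow fibre markers summed to 75204 to 106214 CPM per high-fat library and 85106 to 105843 CPM per control library (CPM, counts per M counts after scaling by the trimmed mean of M values). Among them Atp2a2, the calcium pump of slow fibres, had 23746 ± 4079 CPM over high-fat animals and 23834 ± 3279 CPM over controls. Fast fibre markers ran from 3389 to 26905 CPM and from 1964 to 35283 CPM in the same order, so their summed level varied widely within both groups. Tnnt3, the fast fibre marker with most counts, had 9009 ± 7176 CPM over high-fat animals and 14139 ± 10001 CPM over controls. In all 25 pairs of same-group libraries the chi-square per degree of freedom was at least 25.1, so none was treated as a repeat of another. CPM values are not divided by transcript length, so levels and marker sums are set side by side between libraries and not between genes. In whole muscle, fewer cells of a type and less RNA per cell cannot be told apart.

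The main question was whether these genes differed with the mother's diet, the series title naming insulin resistance and muscle oxidative phosphorylation in adult offspring. None of the 7 did so beyond the spread between animals. Log2 fold changes (high-fat over control) ran from -0.14 for Bnip3 to 0.06 for Dnm1l, the 2 groups overlapped for all 7 genes, and 6 of the 7 had a fitted value below 0, as did 49.1% of all genes tested. With edgeR's quasi-likelihood F test, adjusted by Benjamini and Hochberg over all 10814 genes, 0 of the 7 were called, with adjusted p from 0.974 to 0.990 and unadjusted p from 0.317 to 0.773. Of all genes tested that call was made for 0%, and 4.84% had an unadjusted p under 0.05 (3.45% higher and 1.39% lower), against 0 of the 7. DESeq2, edgeR's likelihood ratio test and limma voom also called 0 of the 7, and they called 7, 8 and 0 of all 10814 genes in this order. Groups did not overlap for 0.370% of all genes tested.

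**Figure D1:**
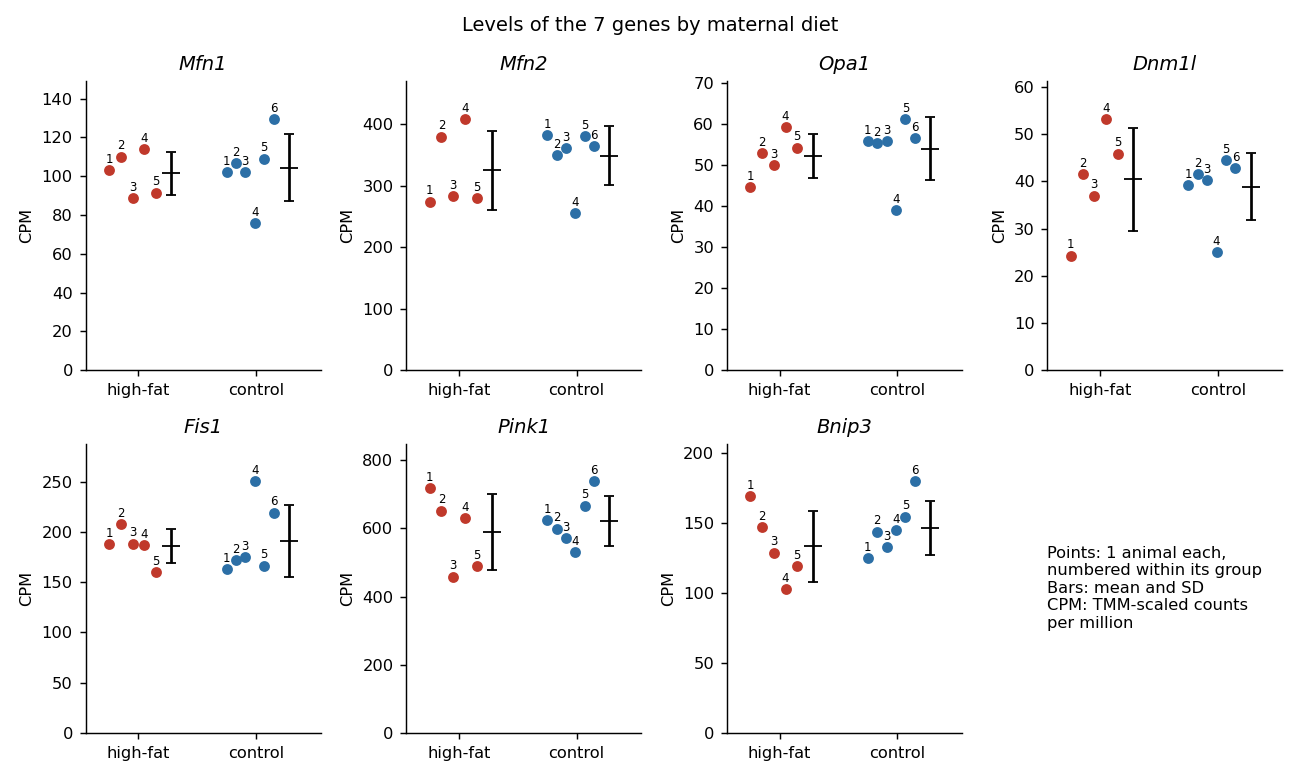
Level of each of the 7 genes in each animal, in CPM on an axis from 0, with high-fat animals in red left of control animals in blue; each point is 1 animal with its number, and bars give the mean and SD. The groups overlap in every panel, and control animal 4 and high-fat animal 1 lie lowest in their groups for Mfn2, Opa1 and Dnm1l.

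Mfn1 and Mfn2 encode the mitofusins, the GTPases that tether and fuse outer membranes. Mfn1 had levels of 103, 110.1, 88.5, 114 and 91.6 CPM in high-fat animals 1 to 5, against 75.9 to 130 CPM in the control group, with a control median of 105. Control animals 4 and 6 were the lowest and the highest of all 11, so the high-fat values lay inside the control range. Mean levels were 101 ± 11.1 CPM over high-fat animals and 104 ± 17.2 CPM over controls, a log2 fold change of -0.04 ± 0.13 (edgeR adjusted p = 0.988).

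Mfn2 also tethers mitochondria to the endoplasmic reticulum. Its levels were 274, 379, 283, 409 and 279 CPM in high-fat animals 1 to 5, against 255 to 383 CPM in the control group, with a control median of 362. High-fat animals fell into a low set, animals 1, 3 and 5, and a high set, animals 2 and 4, while 5 of the 6 control animals lay between 350.1 and 383 CPM and control animal 4 lay below every other animal. Mean levels were 325 ± 64.1 CPM over high-fat animals and 349 ± 47.5 CPM over controls, a log2 fold change of -0.10 ± 0.14 (edgeR adjusted p = 0.976).

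Opa1, the inner membrane fusion GTPase that also shapes cristae, varied least of the 7 (26.7% of tested genes had a smaller SD of log2 CPM). Levels were 44.7, 52.9, 50.0, 59.2 and 54.3 CPM in high-fat animals 1 to 5, against 39.0 to 61.3 CPM in the control group, with a control median of 55.9. As for Mfn2, high-fat animal 1 and control animal 4 were the lowest of their groups. The log2 fold change was -0.05 ± 0.12 (edgeR adjusted p = 0.985), with means of 52.2 ± 5.36 CPM over high-fat animals and 54.0 ± 7.67 CPM over controls.

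Dnm1l encodes DRP1, the GTPase that constricts mitochondria. It was the most variable of the 7, at 24.3, 41.6, 37.02, 53.3 and 45.9 CPM in high-fat animals 1 to 5, against 25.0 to 44.5 CPM in the control group, with a control median of 40.9. High-fat animal 1 and control animal 4 stood apart at the low end, and the next animal up, high-fat animal 3, had 37.02 CPM. Mean levels were 40.4 ± 10.8 CPM over high-fat animals and 38.9 ± 7.07 CPM over controls, a log2 fold change of 0.06 ± 0.19 (edgeR adjusted p = 0.990). Its sign turned without control animal 4 (-0.04) or without high-fat animal 4 (-0.06).

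Fis1 encodes a small tail-anchored outer membrane protein counted among the fission factors. Its transcript had 187, 208, 188, 187 and 160.2 CPM in high-fat animals 1 to 5, against 163 to 250.1 CPM in the control group, with a control median of 173. Control animal 4, lowest of its group for 5 of the other genes, was here the highest of all 11. Mean levels were 186 ± 17.0 CPM over high-fat animals and 191 ± 35.5 CPM over controls, a log2 fold change of -0.04 ± 0.13 (edgeR adjusted p = 0.990). Without control animal 4 the log2 fold change was 0.05, and with libraries scaled by size alone it was 0.00028.

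Pink1, the kinase that marks damaged mitochondria, had 718, 652, 458, 630.0 and 489.9 CPM in high-fat animals 1 to 5, against 529.8 to 738 CPM in the control group, with a control median of 612. High-fat animals 3 and 5 lay below every control animal, and the remaining 3 lay within the control range. Mean levels were 589.6 ± 111 CPM over high-fat animals and 622 ± 73.4 CPM over controls, a log2 fold change of -0.08 ± 0.14 (edgeR adjusted p = 0.982).

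Bnip3, a mitophagy receptor that is induced by hypoxia and by FoxO3 in muscle, had the largest difference of the 7. Its values were 169, 147, 129, 103 and 119 CPM in high-fat animals 1 to 5, against 125 to 179 CPM in the control group, with a control median of 144. High-fat animals 4 and 5 lay below every control animal. Mean levels were 133 ± 25.6 CPM over high-fat animals and 147 ± 19.2 CPM over controls, a log2 fold change of -0.14 ± 0.13 (edgeR adjusted p = 0.974). Without high-fat animals 4 and 5 together, the lowest for this gene, it was 0.01. Leaving out high-fat animal 1, the highest of its group, gave -0.24 (edgeR adjusted p = 0.905).

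**Figure D2:**
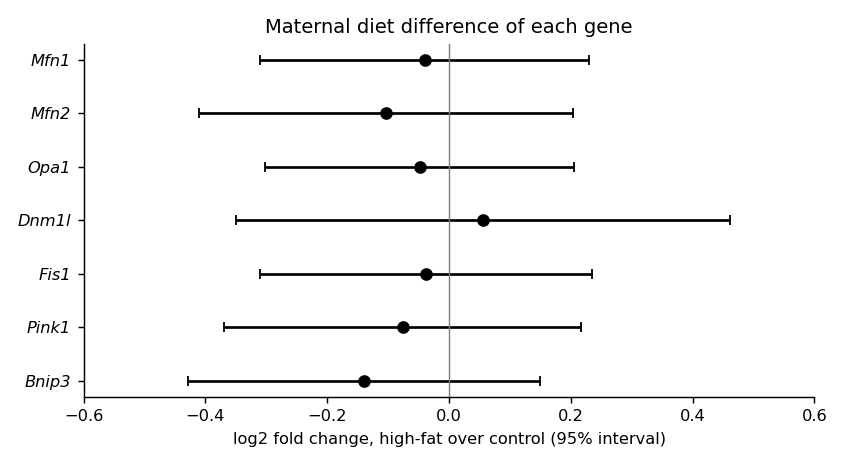
Log2 fold change of each gene, high-fat over control, with its 95% interval from edgeR's quasi-likelihood fit; the vertical line marks 0. Every interval spans 0, and that of Dnm1l is the widest.

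The 95% intervals bounded the size of a diet difference that these animals leave possible. As folds they ran from 0.806 to 1.17 for Mfn1, 0.753 to 1.15 for Mfn2, 0.811 to 1.15 for Opa1 and 0.785 to 1.38 for Dnm1l. For Fis1 the interval was 0.807 to 1.18, for Pink1 0.774 to 1.16 and for Bnip3 0.743 to 1.11. These are intervals of the main fit. Those of the alternatives, such as the fit without high-fat animals 4 and 5 (Dnm1l log2 fold change -0.18 ± 0.20), were not examined. A change of 1.5-fold in either direction lay outside all 7 intervals of the main fit, and no difference at all lay inside all 7. Counting error was small beside this: the lowest count of any of the 7 in any library was 266, for Dnm1l in control animal 4, which carries a counting error of 6.13%, while the animal-to-animal variation (biological coefficient of variation) was 15.3% for Opa1 to 22.6% for Dnm1l. For 6 of the genes it was below the trend for genes of like abundance (19.9% to 21.3%), and for Dnm1l above it (19.9%).

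Ratios within a library need no scaling, and the difference between groups passed no test for the 3 examined. The log2 ratio of Mfn2 to Mfn1 was 1.66 ± 0.17 over high-fat animals and 1.75 ± 0.14 over controls. That of Mfn2 to Dnm1l, fusion against fission GTPase, was 3.03 ± 0.33 in the high-fat group and 3.17 ± 0.12 in the control group. High-fat animals held both the highest of all 11 (animal 1, 3.49) and the lowest 3 (animals 3, 4 and 5, from 2.60 to 2.94), whereas control animals lay between 3.07 and 3.34. That of Bnip3 to Pink1 was -2.15 ± 0.29 in the high-fat group and -2.09 ± 0.15 in the control group, with high-fat animal 4 lowest of all at -2.62. In two-sided exact permutation tests over all 462 splits the differences gave p = 0.398, p = 0.364 and p = 0.662 in this order, and 0.597, 0.597 and 0.662 adjusted over the 3. Without high-fat animal 1 the Mfn2 to Dnm1l difference was -0.26 (exact permutation p = 0.0381, not adjusted over the 3 ratios) in place of -0.14.

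The animals nonetheless differed from each other in a patterned way. High-fat animal 1 had the lowest Mfn2, Opa1 and Dnm1l of its group and the highest Pink1 and Bnip3. High-fat animal 4 was the reverse for 4 of these, with the highest Mfn2, Opa1 and Dnm1l of its group and the lowest Bnip3. Control animal 4 was lowest of its group for Mfn1, Mfn2, Opa1, Dnm1l and Pink1 and highest for Fis1, and control animal 6 was highest for Mfn1, Pink1 and Bnip3.

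**Figure D3:**
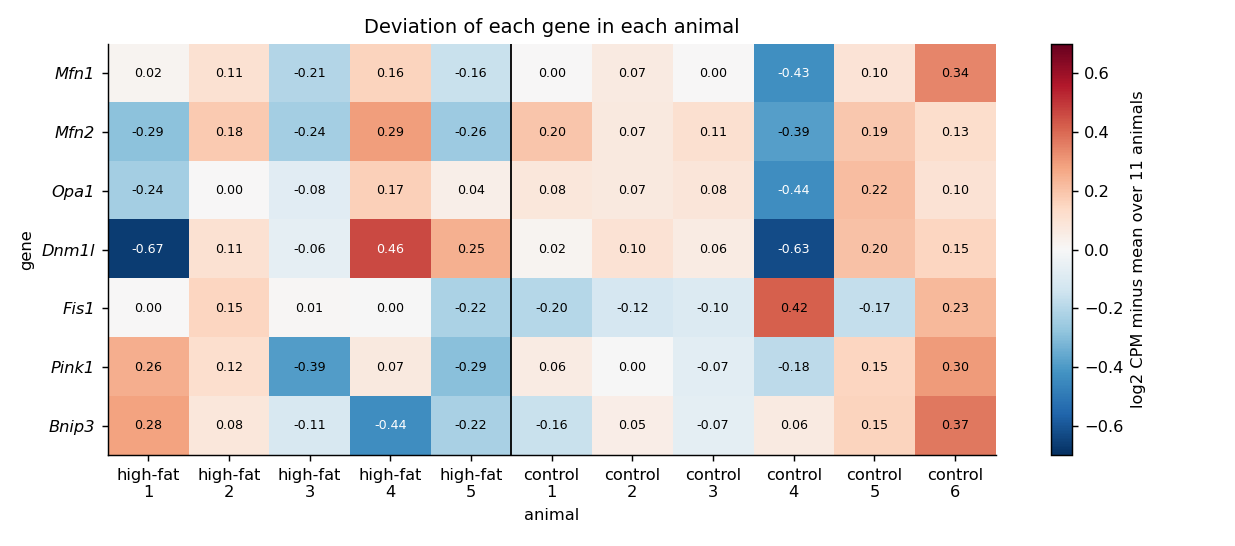
Deviation of each gene from its own mean over the 11 animals, in log2 CPM, with high-fat animals left of the black line and control animals right of it; red is above and blue below the mean. Dnm1l is 0.67 below its mean in high-fat animal 1 and 0.63 below in control animal 4, where Fis1 is 0.42 above its own.

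Over the 21 pairs of genes, Mfn1 and Pink1 varied together most steadily. Pearson's r of their log2 CPM over the 11 animals was 0.78 (permutation p = 0.00419, adjusted over 21 pairs 0.0220) and Spearman's rho was 0.81 (permutation p = 0.00405, adjusted 0.0474), with r = 0.84 without the 2 animals farthest from the median of Mfn1. Taken as deviations from the group means r was 0.78. Without control animal 4 and high-fat animal 1 (left out together once their values had been seen) r was 0.94 (exact permutation p = 0.000287, adjusted 0.00602, n = 9). Over those 9 animals rho was 0.88 (exact permutation p = 0.00308, adjusted 0.0646), which did not pass. Mfn1 and Mfn2 gave r = 0.78 (permutation p = 0.00273, adjusted 0.0191) and rho = 0.64 (permutation p = 0.0400, adjusted 0.140), and r = 0.79 without the 2 farthest animals. Without control animal 4 and high-fat animal 1 that pair gave r = 0.75 and no longer passed (exact permutation p = 0.0191, adjusted 0.134, n = 9).

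Mfn2 and Opa1 gave r = 0.83 (permutation p = 0.000490, adjusted 0.00766) and rho = 0.80 (permutation p = 0.00451, adjusted 0.0474), but the 2 animals farthest from the median of Mfn2 were again control animal 4 and high-fat animal 1, and without them r was 0.68 (exact permutation p = 0.0455, adjusted 0.225, n = 9). Because Dnm1l fell into a low pair and 9 higher animals, its relations with Opa1 and Mfn2 are given over those 9 alone. There it gave r = 0.65 with Opa1 (exact permutation p = 0.0644, adjusted 0.225, n = 9) and r = 0.36 with Mfn2 (exact permutation p = 0.343, adjusted 0.480, n = 9), and neither passed. No r or rho over all 11 animals is given for Dnm1l with another of the genes described here. Its most similar profiles and its test with total fat, both further on, used all 11 animals, the low pair included. Pink1 and Bnip3, the mitophagy pair, gave r = 0.55 and rho = 0.67 and did not pass the adjustment (0.183 and 0.140 by permutation).

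Fis1 varied with the genes of the respiratory chain, and also with another library measure given further on. Its log2 CPM followed the score of 51 nuclear genes of oxidative phosphorylation (OXPHOS; the mean over genes of log2 CPM minus the gene's mean) with r = 0.85 (permutation p = 0.000690) and rho = 0.87 (permutation p = 0.000880), which were 0.0290 and 0.0370 after adjustment over 42 relations of the 7 genes with library measures, 14 of which were added after the data were seen. It held without the 2 farthest animals (r = 0.83) and without control animal 4 and high-fat animal 1 (r = 0.82). Fis1 also gave r = 0.73 and rho = 0.65 with the slow fibre score (permutation p = 0.0111 and 0.0338, adjusted 0.102 and 0.237), which did not pass. No other gene passed with the OXPHOS score. Over 11 animals r was 0.60 for Bnip3, 0.42 for Pink1, 0.12 for Mfn1, -0.05 for Mfn2 and -0.40 for Opa1. For Bnip3 rho was 0.76 (permutation p = 0.00856, adjusted 0.153). Without that pair of animals r was 0.74 for Mfn1, 0.67 for Pink1, 0.65 for Bnip3, 0.41 for Mfn2, 0.05 for Opa1 and -0.07 for Dnm1l.

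**Figure D4:**
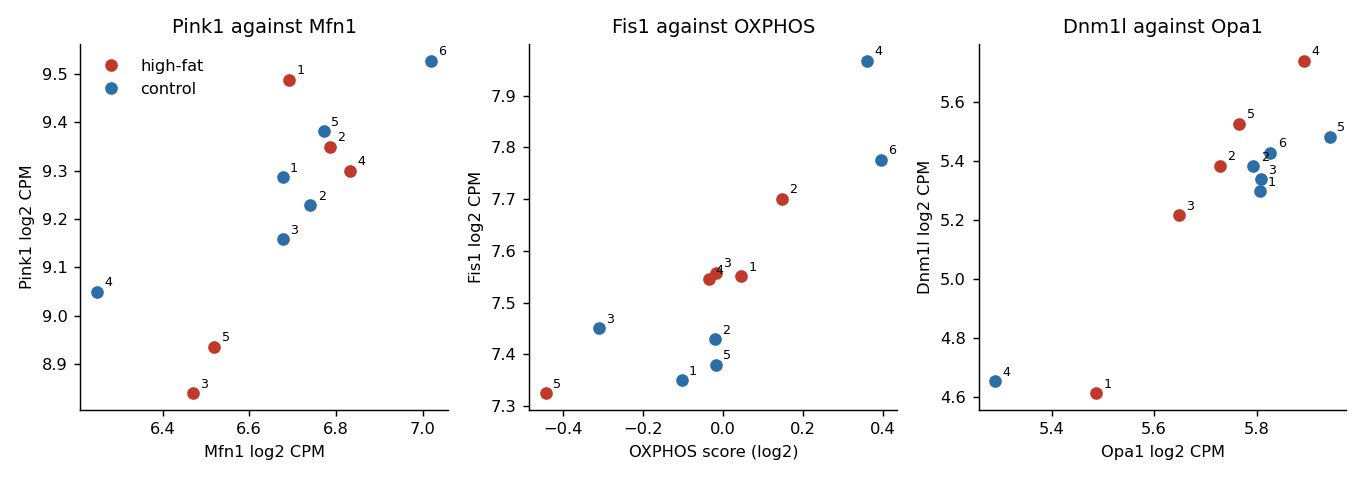
Pink1 against Mfn1, Fis1 against the OXPHOS score and Dnm1l against Opa1, each point being 1 animal (high-fat red, control blue, with its number) and all axes on the log2 scale. Pink1 is higher where Mfn1 is higher and Fis1 where the OXPHOS score is higher, and in the last panel control animal 4 and high-fat animal 1 lie far from the other 9 animals.

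Library makeup was set beside these levels. A composition score, averaged over the marker scores of macrophages, fibroblasts and adipocytes, was lower where Bnip3 was higher (r = -0.73, permutation p = 0.0105; rho = -0.75, permutation p = 0.0112; adjusted 0.102 and 0.153; r = -0.76 without the 2 farthest animals). Fis1 gave r = -0.65 and rho = -0.67 with it (permutation p = 0.0290 and 0.0278, adjusted 0.174 and 0.233; r = -0.56 without the 2 farthest animals), and neither gene passed. Marker sums ran from 291 to 1815 CPM in high-fat libraries and from 349 to 1024 CPM in control libraries for 10 macrophage genes. They ran from 1238 to 3500 and from 1013 to 3670 CPM for 8 fibroblast and matrix genes, and from 443 to 847 and from 513 to 865 CPM for 6 adipocyte genes, in the same order. Every listed marker with a row in the table passed the filter on low counts. The slope of each library's log2 deviations on genomic gene span (bases from the start to the end of the gene in GRCr8, 9811 genes matched) was also compared. It was lowest in control animal 4 (-0.051 log2 units per doubling of span), then in control animal 6 (-0.027) and high-fat animal 1 (-0.017), and highest in high-fat animal 5 (0.032). Fis1 was higher where it was lower (r = -0.83, permutation p = 0.00232, adjusted 0.0487; rho = -0.73, permutation p = 0.0145, adjusted 0.153). For Fis1 r was -0.41 without the 2 farthest animals and -0.68 without control animal 4 and high-fat animal 1. Opa1 gave r = 0.73 (permutation p = 0.0138, adjusted 0.102) and rho = 0.45 (permutation p = 0.165, adjusted 0.449). For Opa1 r was 0.69 without the 2 farthest animals and 0.13 without control animal 4 and high-fat animal 1. The OXPHOS score was highest in control animals 6 (0.39) and 4 (0.36), whose slopes were the lowest. It was lowest in high-fat animal 5 (-0.44) and control animal 3 (-0.31), whose slopes (0.032 and 0.019) were the highest. High-fat animal 2 had the next highest score (0.15) with a slope above 0 (0.0098). A relation of this score with the slope was not tested, nor was the part of composition and of gene span in the levels.

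For each gene the 3 most similar profiles among 8571 other genes with a mean of at least 5 CPM were listed by Pearson's r of log2 CPM over the 11 animals, as a description. Bnip3 was closest to Slc20a1, a phosphate transporter gene (r = 0.97, and 0.99 without control animal 4 and high-fat animal 1), Ube2h, a ubiquitin-conjugating enzyme gene (0.94), and Palmd (0.93). Pink1 was closest to Mapkapk5, a protein kinase gene (0.94), Amz2 (0.92) and Ndrg2 (0.92). Mfn1 was closest to Atp2a2 (0.93), Zfyve9 (0.93) and Rraga (0.91), and Mfn2 to the deubiquitinase gene Usp11 (0.95), the mitochondrial protease gene Lonp1 (0.91) and Eif3c (0.91).

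Fis1 had 57 genes over r = 0.9, more than any other of the 7, led by the complex I gene Ndufs5 (0.97), LOC301124 (0.97) and Romo1, an inner membrane protein gene (0.96). Their r lay between 0.92 and 0.97 without control animal 4 and high-fat animal 1. Dnm1l was closest to Phka1, a muscle phosphorylase kinase subunit gene (0.95), Aco1 (0.93) and Ubr1 (0.93), and Opa1, for which 2 profiles are given, to Rcbtb1 (0.94) and Fbxl17 (0.93). Those of Opa1 dropped to 0.61 and 0.50 without that pair of animals, and those of Dnm1l to between 0.58 and 0.79.

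The wider machinery was examined through lists of other genes of these pathways. Of 13 measured fusion regulators 0 were called and 0 had an unadjusted p under 0.05, with 2 higher, 11 lower and a median log2 fold change of -0.07, against a median of 0.0039 over all genes tested. Oma1, the stress-activated protease that cleaves OPA1, stood at 15.2 ± 2.41 CPM over high-fat animals and 17.0 ± 2.77 CPM over controls, a log2 fold change of -0.16 ± 0.14. Parl, an inner membrane protease that cleaves PINK1, had -0.13 ± 0.09, Fam73b -0.13 ± 0.12 and Afg3l2, an m-AAA protease subunit gene, -0.07 ± 0.08.

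Of 13 fission adaptors and regulators 0 were called, with 3 higher, 10 lower (5 and 8 with libraries scaled by size alone) and a median of -0.04. Gdap1 had an unadjusted p of 0.0148 (log2 fold change -1.20 ± 0.43, edgeR adjusted p = 0.974) at only 0.398 ± 0.237 CPM over high-fat animals and 0.927 ± 0.370 CPM over controls. Mtfp1, an inner membrane fission protein gene, stood at 30.4 ± 6.59 CPM over high-fat animals and 40.6 ± 11.5 CPM over controls (-0.42 ± 0.20), Mtfr1l had -0.21 ± 0.10 and Akap1, which anchors protein kinase A to the outer membrane, -0.20 ± 0.11. Mff, the gene of a DRP1 adaptor, named after its values were seen, stood at 131 ± 8.18 CPM over high-fat animals and 132 ± 19.5 CPM over controls (-0.01 ± 0.11).

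Of 20 mitophagy receptors and PINK1-Parkin partners 0 were called and 0 had an unadjusted p under 0.05, with 10 higher and 10 lower and a median of -0.0028. That split depended on scaling, with 14 higher and 6 lower by library size alone and 7 higher and 13 lower by the upper quartile. Ambra1, an autophagy scaffold gene, had -0.21 ± 0.12, the receptor gene Fundc1 -0.17 ± 0.11, the cargo receptor gene Tax1bp1 0.16 ± 0.10 and Usp30, the deubiquitinase that opposes Parkin, -0.10 ± 0.13. The direct partners Park2 and Bnip3l, named after their values were seen, had log2 fold changes close to 0. Park2, the gene of Parkin, stood at 9.76 ± 2.39 CPM over high-fat animals and 9.83 ± 0.691 CPM over controls, and Bnip3l, the paralogue of Bnip3, at 80.3 ± 10.9 and 80.9 ± 8.78 CPM in the same order, with log2 fold changes of -0.01 ± 0.16 and -0.01 ± 0.11.

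**Figure D5:**
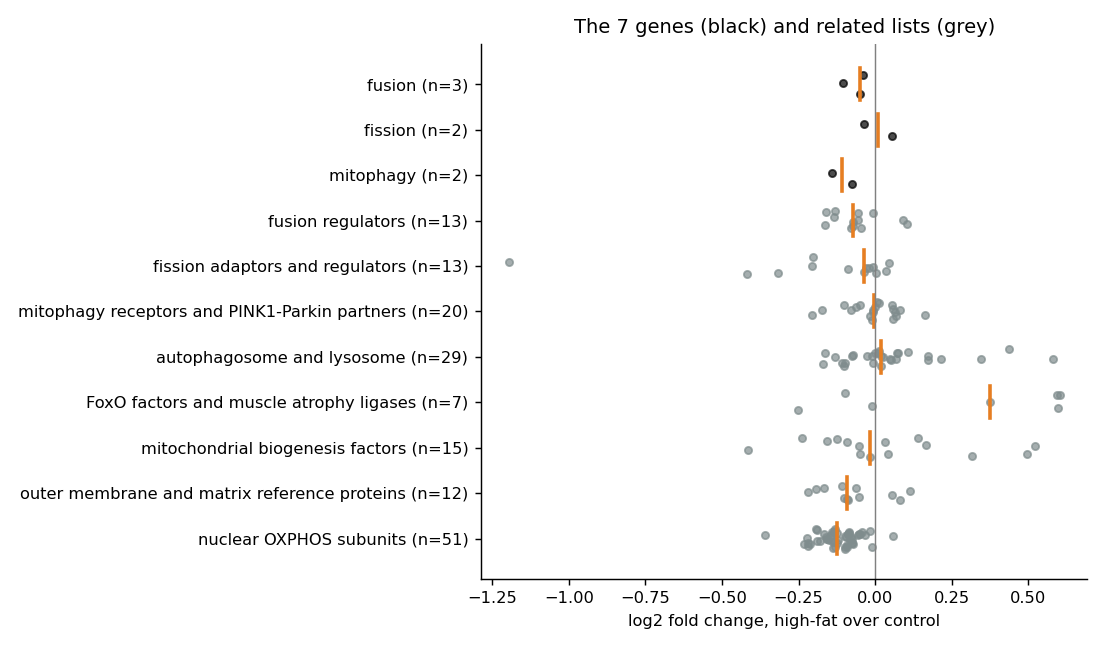
Log2 fold change (high-fat over control) of the 7 genes, in black, and of each measured gene of 8 related lists, in grey, 1 point a gene, with the median of each list as an orange bar. The 7 genes lie within 0.14 of 0, whereas genes of the FoxO list reach 0.60 and the lowest fission regulator, Gdap1, lies at -1.20.

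Of 29 autophagosome and lysosome genes 0 were called, with 18 higher, 11 lower (21 and 8 by library size alone, 15 and 14 by the upper quartile) and a median of 0.02. Those furthest apart on the higher side were lysosomal: Ctsl1, a cathepsin gene, stood at 204 ± 58.2 CPM over high-fat animals and 136 ± 12.9 CPM over controls, with a log2 fold change of 0.58 ± 0.17 (unadjusted p = 0.00477, edgeR adjusted p = 0.974). Ctsb had 0.44 ± 0.22 and Lamp2 0.35 ± 0.18. The lysosomal genes Lamp1 and Ctsd, named after their values were seen, had 0.11 ± 0.09 and 0.07 ± 0.09. Atg4b, a protease that processes LC3, had -0.16 ± 0.10. Beside them, 10 of 10 macrophage markers had values above 0 (median 0.68, 0 called), and their part in the lysosomal values was not tested.

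Of 7 FoxO factors and atrophy ligases 0 were called, and 4 had an unadjusted p under 0.05 (3 higher and 1 lower), against 4.84% of all genes. Of the 7, 4 were higher and 3 lower (5 and 2 by library size alone), with a median of 0.38. Foxo3 stood at 21.0 ± 8.09 CPM over high-fat animals and 13.9 ± 3.90 CPM over controls, a log2 fold change of 0.60 ± 0.25. Foxo1 had 0.60 ± 0.25, the ubiquitin ligase gene Fbxo30 0.59 ± 0.22 and Foxo4 -0.25 ± 0.11, all with edgeR adjusted p of 0.974. The list's score was highest in high-fat animals 4 (0.45) and 5 (0.29), the animals with the lowest Bnip3. The next score was that of control animal 6 (0.14), which had the highest Bnip3 of all 11. A relation of this score with Bnip3 was not tested. Of 15 mitochondrial biogenesis factors 0 were called, with 7 higher, 8 lower and a median of -0.02. Those named were Ppard at 0.50 ± 0.16 (unadjusted p = 0.00738), the coactivator gene Ppargc1a at 0.52 ± 0.28, Polg2 at -0.41 ± 0.24 and Tfb1m at -0.24 ± 0.12.

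Genes of mitochondrial mass rather than remodelling were set beside these. The 12 genes of outer membrane and matrix proteins had 3 higher and 9 lower values with a median of -0.09. Vdac1, the outer membrane channel gene and a Parkin substrate, had -0.19 ± 0.14, Vdac3 -0.11 ± 0.11, and the import genes Tomm22 -0.22 ± 0.11 and Timm44 -0.17 ± 0.11. Of 51 OXPHOS genes 50 were lower (48 by library size alone) with a median of -0.12 and 0 were called, among them Cox7b (-0.36 ± 0.19), Ndufa2 (-0.23 ± 0.15) and Ndufs3 (-0.22 ± 0.15). The values of the 7 genes, from -0.14 to 0.06, lay in the same range. Genes of a list measured in the same animals are not independent of each other. Over animals the OXPHOS score was -0.06 ± 0.22 in the high-fat group and 0.05 ± 0.27 in the control group. It ran from -0.44 to 0.15 and from -0.31 to 0.39 in the same order, so the groups overlapped.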

How the data were processed

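A single table of raw counts, gene symbols by animals, was deposited by the authors, without pooling. The submitters' processing notes name BWA and HTSeq, besides FastQC and edgeR, and give no versions or roles. Genome build, annotation and strand setting: not given in the sources used here. Hence no gene positions of the counted genes are given. Per the labels' protocols, reads came from 36 cycles on a Genome Analyzer and poly(A) RNA was taken from 2 µg of total RNA. Such short reads can be lost or split between related genes such as Mfn1 and Mfn2 or Bnip3 and Bnip3l. In RefSeq GRCr8 no other gene overlaps any of the 7.

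Each column carries an animal's name, which the labels tie to its maternal diet. Animals were numbered within each group in accession order, which for the high-fat group differs from the table's column labels: high-fat animals 1 to 5 are C91, H1, C25, H20 and A37 (columns HF1, HF3, HF4, HF5 and HF6), and control animals 1 to 6 are C73, A110, C60, H10, A89 and A75 (CTRL1 to CTRL6). No animals shared a litter, and whether RNA was handled in batches is not given. Genes were kept by edgeR's filterByExpr, scaled by TMM (factors 0.897 to 1.12) and tested by the quasi-likelihood F test at an adjusted p of 0.05. A common biological coefficient of variation of 0.234 was estimated. The SE of a log2 fold change is its size over the root of its F value. Log2 CPM used a prior count of 2. Permutation p of correlations came from 100000 random pairings, or from all pairings where n was below 10. A count of 0 allows up to 3 counts, and intervals of counts cover counting error only.

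The 7 genes, the lists and the alternatives were chosen with earlier results of these data known. Genes named were the 7, up to 4 per pathway list by p, the marker with most counts in a list, and the 3 nearest profiles of each gene, of which 2 genes are not reported here. List medians are descriptions without a test. Alternatives were other scalings, filters, tools and covariates and leaving out animals. The gene test was checked on simulated data. Counts were modelled in R 4.3.3 with edgeR 4.0.16 and, as alternatives, DESeq2 1.42.0 and limma 3.58.1. Permutations used SciPy 1.17.1 and NumPy 2.4.6 under Python 3.11.15, tables pandas 2.3.3 and plots matplotlib 3.10.9.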

Additional observations from a re-analysis of the deposited data

Results flagged for a closer look

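Values within a group were examined for 1 animal standing far from the others, over 122 sets of values (the 7 genes, the 3 ratios, the named pathway genes and the list scores in each group). The gap to the nearest animal was over 0.710 of the range with 5 animals or 0.625 with 6 in 7 sets, and chance gives about 1 in 20.

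Of these 3 concerned the 7 genes, all in control animal 4. It had 255 CPM of Mfn2 against 350.1 in the nearest control animal, 39.0 CPM of Opa1 against 55.3 and 25.0 CPM of Dnm1l against 39.2. Beside them, that library had the lowest slope on gene span (-0.051), the highest Fis1 and the lowest adipocyte marker score (-1.62), and the part of these in the low values was not tested.

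The other 4 were single values of related genes or scores. Mtfr1l stood at 782 CPM in control animal 6 against 635 in the nearest control animal. Akap1 stood at 70.5 CPM in high-fat animal 1 against 87.1 in the nearest high-fat animal. Atg4b stood at 19.6 CPM in control animal 1 against 24.9. The Schwann cell score was 3.06 in control animal 5 against 0.43.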

How the results depend on the processing

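No paired analysis was possible because the replicate numbers follow accession order and no animals shared a litter. Over all 25 alternatives the adjusted p of the 7 genes stayed between 0.818 and 1.00 and none was called. DESeq2 called 7 of all genes and the likelihood ratio test 8, against 0 in the main test and in every other alternative. Signs of these small log2 fold changes turned as follows, and the cause was not tested. With the leading letter of animal names as covariate Mfn1 was 0.0090 and Opa1 0.0087. With the composition score as covariate Dnm1l was -0.0033 and Fis1 0.018, and with the OXPHOS score Fis1 was 0.051. Scaling by library size alone gave Fis1 0.00028. Without high-fat animals 4 and 5 together Dnm1l was -0.18, Fis1 0.026, Bnip3 0.014, the ratio of Mfn2 to Dnm1l 0.028 and that of Bnip3 to Pink1 0.062. Of alternatives added after the data were seen, leaving out control animal 4 and high-fat animal 1 gave Fis1 0.035, and the gene span slope as covariate gave Dnm1l -0.093 and Fis1 0.070. Without 1 animal the ranges were -0.12 to 0.031 for Mfn1, -0.20 to -0.048 for Mfn2, -0.13 to 0.0024 for Opa1, -0.065 to 0.19 for Dnm1l, -0.099 to 0.055 for Fis1, -0.16 to 0.0020 for Pink1 and -0.24 to -0.059 for Bnip3. For the ratios they were -0.13 to -0.018 (Mfn2 to Mfn1), -0.26 to -0.038 (Mfn2 to Dnm1l, where leaving out high-fat animal 1 gave the lowest unadjusted p of the 11, 0.0381 by exact permutation) and -0.14 to 0.057 (Bnip3 to Pink1), and for the count of genes called 0 to 0. Depth did not limit these genes, whose counting errors lay below the variation between animals, except Gdap1 with 2 to 16 counts per library.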

Other observations

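The labels also give each animal's fat depots and plasma insulin. None of 14 relations of the 7 genes with total fat as a share of body weight (11 animals) or with plasma insulin (10 animals, high-fat animal 5 having no value) passed a permutation test, the smallest unadjusted values being 0.139 for Pearson's r and 0.0618 for Spearman's rho and the smallest adjusted ones 0.771 and 0.865. Leaving aside Dnm1l, whose values fall in separate clusters, the steepest with fat by r was Pink1 (r = 0.41, rho = 0.35, permutation p = 0.211 and 0.286, r = 0.10 without the 2 farthest animals). By rho the steepest with fat was Fis1 (rho = 0.59, permutation p = 0.0618, r = 0.28, and r = 0.64 without the 2 farthest animals). With insulin the steepest by r was Bnip3 (r = -0.37, rho = -0.13, permutation p = 0.293 and 0.730), whose r was 0.47 without the 2 farthest animals.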
